A study of Rattus norvegicus with 35 samples.

Results

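Livers of rats given the highest and the lowest doses of a brominated flame retardant were compared with each other, without use of the vehicle animals. BTBPE, 1,2-bis(2,4,6-tribromophenoxy)ethane, is added to plastics to slow burning. The 11 arrays of the 68 and 680 mg/kg groups (the high doses, 5 and 6 arrays) were set against the 12 arrays of the 0.07 and 0.69 mg/kg groups (the low doses, 6 each), chosen by their titles. These are 23 of the 35 arrays of the series, and none of them was left out. The rats were Harlan Sprague Dawley males on NTP-2000 diet, aged 7 weeks when dosing began. All received BTBPE in corn oil by gavage at 5 ml/kg on each of 5 days. The left liver lobe was collected on the day after the last dose. The 6 arrays of corn oil vehicle and the 6 of 6.88 mg/kg stayed outside the comparison and are given only beside some of its values. The series addresses the dose at which BTBPE alters liver transcripts. A comparison of high with low doses asks whether any transcript depends on dose once the vehicle group plays no part in the difference.

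Liver answers foreign compounds through receptors that act as transcription factors. CAR and PXR induce cytochromes P450 of the Cyp2b and Cyp3a families, the aryl hydrocarbon receptor (AhR) induces Cyp1a1 and Cyp1a2, and PPAR-alpha, a sensor of fatty acids, induces enzymes of fatty acid oxidation. Several brominated aromatic compounds are known ligands or activators of one or more of these receptors, and induction of conjugating enzymes can speed the clearance of thyroid hormone.

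Values are log2 expression per probe set, and each of 14217 genes was read from 1 probe set. Array medians lay between 4.71 and 4.79, and any 2 of the 23 arrays correlated at 0.992 to 0.996 across probe sets. All 11 measured hepatocyte markers were above the array medians, with albumin (Alb) at 14.39. The ratio of 3 prime to 5 prime actin control probe sets, a sign of RNA integrity, was 1.16 ± 0.09 (log2, SD, n = 12) at the low doses and 1.13 ± 0.06 (n = 11) at the high doses (two-sided permutation test, p = 0.424). Neither the labels nor the value table name a batch. The labels speak of replications and of dosed animals, and each array was counted as 1 rat. If some arrays share an animal, p-values measure only the spread between arrays.

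No transcript passed the test between high and low doses. Among the 14217 genes, each read from 1 probe set, the largest differences between the pooled groups were under 2-fold. By limma's moderated test, 0 of 31042 probe sets passed an adjusted p of 0.05 (percent called 0), and the smallest adjusted p was 0.997. At an unadjusted p under 0.05 there were 1453 probe sets, 612 higher and 841 lower at the high doses, where 1552 would come from chance alone, and 23 reached p under 0.001 against 31 from chance. A test without moderation also called 0, with 1478 at an unadjusted p under 0.05. In 0 of 14217 genes (percent called 0) did all high-dose arrays lie on 1 side of all low-dose arrays.

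The intervals bound how large a difference could have been missed. For 14119 genes (99.3%) the 95% confidence interval of the fold between high and low doses, taken for each gene alone, lay within a 1.5-fold change in either direction, and for 14202 (99.9%) within a 2-fold change. The median size of a difference was 0.0374 on the log2 scale, and the median half-width of an interval was 0.116. The estimated difference exceeded 1.5-fold for 5 genes and 2-fold for 0.

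**Figure D1:**
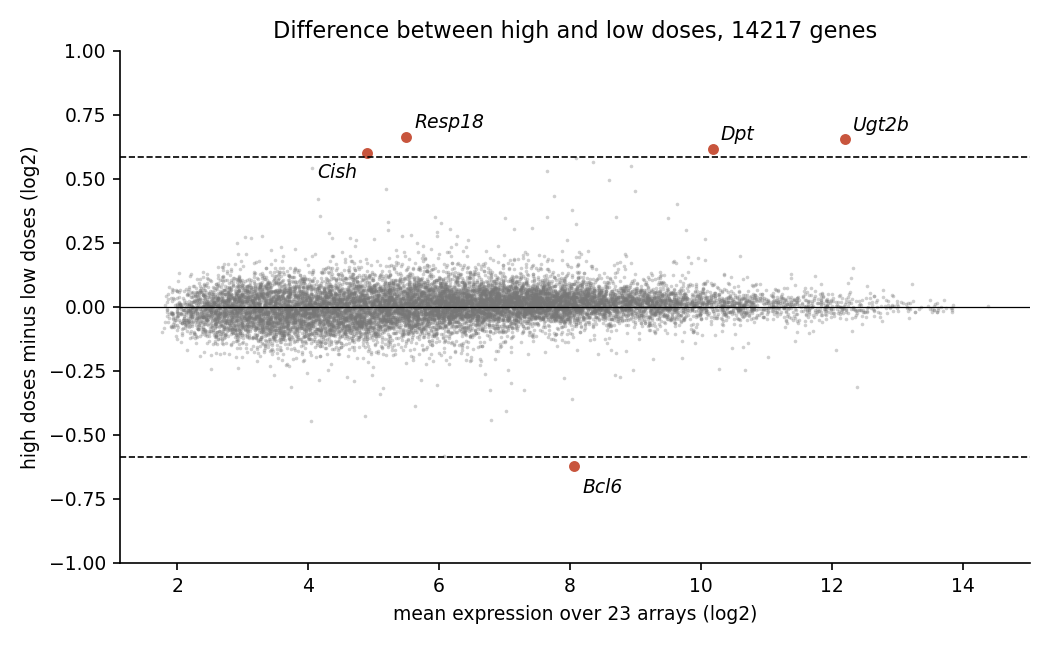
Difference between high and low doses (log2, vertical axis) against mean expression over the 23 arrays (log2, horizontal axis), with 1 point for each of 14217 genes. Dashed lines mark 1.5-fold, and the 5 genes beyond them, Resp18, Ugt2b, Dpt, Cish and Bcl6, are named; none was called.

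These 5 genes, singled out after their values were seen, varied widely between arrays of the same dose, and each had an adjusted p of at least 0.997. Resp18, an endocrine secretory protein of the endoplasmic reticulum, ranged over low-dose arrays from 3.64 through a median of 5.37 to 6.34, and over high-dose arrays from 5.31 through 5.72 to 6.60. The groups overlapped, and its fold was 1.59 (interval 1.12 to 2.25). The array of 0.69 mg/kg replicate 2 held the lowest value, and without it the log2 difference was 0.48.

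Dpt encodes dermatopontin, an extracellular matrix protein. It read 9.33 to 10.93 at the low doses (median 9.56) and 9.36 to 11.10 at the high doses (median 10.48). The ranges overlapped over most of their length, although 10 of 11 high-dose arrays exceeded the low-dose mean. The fold was 1.53 (1.13 to 2.09), and the other Dpt probe set gave a log2 difference of 0.60. Cish, a feedback inhibitor of STAT5 signalling, ran from 3.69 to 5.98 (median 4.55) at the low doses and from 4.15 to 7.17 (median 4.95) at the high doses. Only 6 of 11 high-dose arrays exceeded the low-dose mean of Cish, and its fold was 1.52 (0.951 to 2.42).

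Ugt2b, a glucuronosyltransferase, rested on a single array. Low-dose arrays ran from 4.57 to 12.84 with a median of 12.49, and high-dose arrays from 12.24 to 12.76 with a median of 12.51. The value of 4.57 belonged to 0.69 mg/kg replicate 5. Without it the log2 difference went from 0.65 to -0.02. Outside the comparison, vehicle replicate 3 (4.34) and 6.88 mg/kg replicate 2 (4.97) were also low for Ugt2b.

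Bcl6, a transcriptional repressor, varied over several log2 units within both groups. It ran from 5.81 to 10.10 (median 9.17) at the low doses and from 5.54 to 10.20 (median 7.32) at the high doses. Its fold was 0.650 (0.266 to 1.59). The dose means were 9.07 at 0.07, 7.73 at 0.69, 8.61 at 68 and 6.94 at 680 mg/kg, so within each pair of neighbouring doses the higher dose had the lower mean, and 68 mg/kg lay above 0.69 mg/kg.

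Classical targets of the receptors for foreign compounds, and of other liver pathways, differed little where the first 2 members of each list were taken. Some later members differed more. Bcl6 (-0.62) and Cish (0.60, log2) belong to the male-predominant list, and Dusp1 (0.55) to the immediate early genes. The first 2 measured members of each of 20 response lists gave 40 genes, of which 21 averaged higher and 19 lower at the high doses, with folds between 0.804 and 1.16. All 40 intervals stayed within 2-fold and 34 within 1.5-fold. For 38 the interval included no change. The exceptions, the clock output gene Dbp (fold 1.10) and the immediate early gene Fos (0.896), both read below the array medians, where signal is weak, and neither was called (adjusted p of at least 0.997).

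Among CAR and PXR targets, Cyp3a23-3a1, a P450 that PXR induces, ran from 11.90 to 12.50 at the low doses (median 12.26) and from 12.02 to 12.66 at the high doses (median 12.40). The groups overlapped along most of their range, and the fold was 1.08 (0.965 to 1.21). Cyp3a9, a second member of that family, spread more widely, with a fold of 1.16 (0.800 to 1.69). Of the 25 measured members of the list 12 were higher and 13 lower, with a median log2 difference of -0.0027. Over all genes 7546 of 14217 (53.1%) were higher and the median was 0.0041. Cyp2a1, a constitutive P450 of rat liver, averaged 9.87 ± 0.26 (SD, n = 12) and 10.06 ± 0.14 (n = 11), a fold of 1.14 (1.01 to 1.29; limma's unadjusted p = 0.0335).

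For the AhR battery, Cyp1a2, a main target in liver, read 12.34 to 12.58 at the low doses (median 12.51) and 12.41 to 12.73 at the high doses (median 12.57). Its fold was 1.06 (0.998 to 1.12), a shift of 8 of 11 high-dose arrays above the low-dose mean within overlapping ranges. Cyp1a1, the classical target, averaged below the array medians in both groups, at 4.38 ± 0.18 (n = 12) and 4.32 ± 0.28 (n = 11). Of 10 measured members 5 were higher, with a median of 0.01. Of these 10, 6 read below the array medians, and the 4 above them, Cyp1a2, Nqo1, Tiparp and Exoc3, were all higher, with a median of 0.12. None was called. The vehicle mean of Cyp1a2, 12.56, lay nearer to the high-dose mean (12.58) than to the low-dose mean (12.49). Vehicle was nearer to the low doses for 4 of the 10 members, and for 55.9% of all genes. Among NRF2 targets, which answer oxidative stress, 17 of 25 were higher with a median of 0.03. The subunits of the enzyme that starts glutathione synthesis, Gclc and Gclm, had folds of 0.940 (0.841 to 1.05) and 1.03 (0.941 to 1.13). Ugt2b1, which conjugates steroids and foreign compounds, was at 1.09-fold (0.960 to 1.23), and 18 of 26 phase II genes were higher with a median of 0.04. Dio1, which deiodinates thyroid hormone and follows its supply, was at 1.05-fold (0.967 to 1.14).

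Among the genes taken from lists of lipid and glucose metabolism, the intervals of Cyp7a1 and Pck1 reached beyond 1.5-fold. Cyp7a1, the rate-limiting enzyme of bile acid synthesis, ran from 9.39 to 11.71 (median 11.13) at the low doses and from 9.52 to 11.70 (median 10.83) at the high doses. The ranges nearly coincided, and the fold was 0.842 (0.558 to 1.27). Pck1, which commits carbon to gluconeogenesis, read 12.53 ± 0.23 (n = 12) and 12.21 ± 0.64 (n = 11), a fold of 0.804 (0.621 to 1.04). Of the 11 high-dose arrays 5 lay below every low-dose array, the lowest of which was at 12.29. The lowest vehicle array was at 12.46. The lowest high-dose arrays were 680 mg/kg replicate 2 at 10.73 and 68 mg/kg replicate 2 at 11.33. Without the first of these arrays the log2 difference of Pck1 was -0.17. Sqle, an enzyme of cholesterol synthesis, was at 0.932-fold (0.759 to 1.15) and Fasn, which makes fatty acids, at 0.982-fold (0.807 to 1.19). The male-predominant P450 Cyp2c11 was among the most tightly bounded, at 1.01-fold (0.962 to 1.06).

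The immediate early genes respond within minutes to handling and stress, and 17 of the 29 measured were higher, with a median of 0.04. Dusp1, a phosphatase that switches off MAP kinases, ran from 8.17 to 9.44 (median 8.53) at the low doses and from 8.45 to 10.17 (median 8.99) at the high doses. Of the high-dose arrays 10 of 11 exceeded the low-dose mean, yet the ranges overlapped. Its fold was 1.46 (1.12 to 1.91; limma's unadjusted p = 0.00724, adjusted p of at least 0.997), and a second probe set gave a log2 difference of 0.39. Vehicle and 6.88 mg/kg averaged 8.81 and 8.93. Egr1, a transcription factor of the same class, differed more between neighbouring doses than between high and low, with means of 8.51 at 0.07, 7.20 at 0.69, 8.64 at 68 and 7.28 at 680 mg/kg. The pooled fold of Egr1 was 1.08 (0.672 to 1.72).

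**Figure D2:**
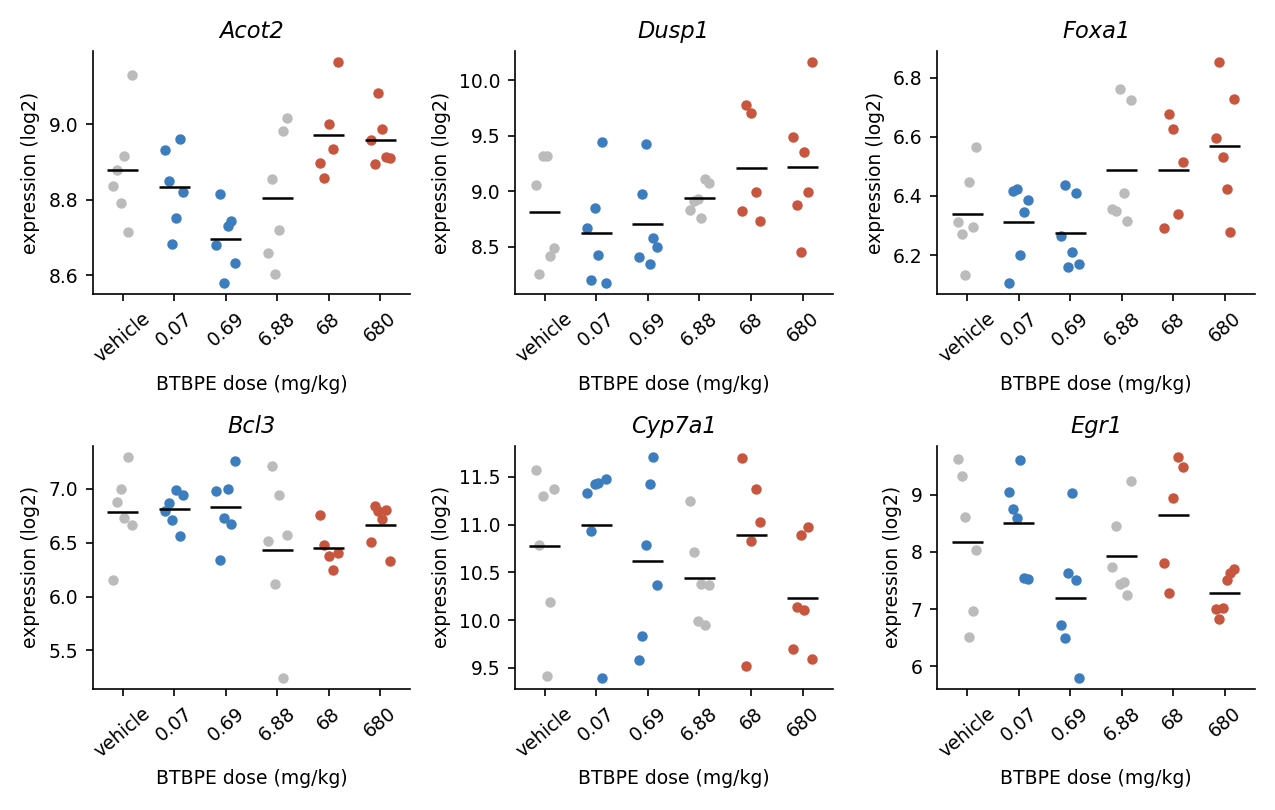
Expression (log2) of Acot2, Dusp1, Foxa1, Bcl3, Cyp7a1 and Egr1 by BTBPE dose, 1 point per array, with group means as bars, low doses in blue, high doses in red and arrays outside the comparison in grey. In each gene the red and blue points overlap, and for Egr1 the 0.07 and 68 mg/kg means (8.51 and 8.64) stand above the 0.69 and 680 mg/kg means (7.20 and 7.28).

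Ranked by p among genes above the array medians, the first 12 higher and 12 lower genes had small differences and none was called; limma's adjusted p was 0.997 for each of the 24. The high-dose folds ran from 1.09 to 1.18 for the higher genes and from 0.821 to 0.935 for the lower ones. All 24 intervals stayed within 1.5-fold, and in all 24 the arrays of the groups overlapped. Because ranking chose them, their direction within these arrays is a description.

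The first of the higher genes was Acot2, a mitochondrial thioesterase that frees fatty acids from coenzyme A and a PPAR-alpha target. It ran from 8.58 to 8.96 at the low doses (median 8.75) and from 8.86 to 9.17 at the high doses (median 8.93). All 11 high-dose arrays exceeded the low-dose mean and 4 exceeded the highest low-dose array. The fold was 1.15 (1.08 to 1.22; limma's unadjusted p = 0.000124), and its other probe sets differed by 0.16 and 0.21 (log2). The vehicle mean of Acot2, 8.88, lay closer to the high-dose mean of 8.96 than to the low-dose mean of 8.77, and 0.69 mg/kg had the lowest mean of all groups, 8.70.

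Zfp347, a zinc finger gene, read 6.03 to 6.41 at the low doses (median 6.32) and 6.31 to 6.63 at the high doses (median 6.46), with a fold of 1.16 (1.09 to 1.25). All 11 high-dose arrays were above its low-dose mean, and the vehicle mean was 6.33. Foxa1, a pioneer transcription factor of hepatocytes, read 6.10 to 6.44 (median 6.30) and 6.28 to 6.85 (median 6.53), with a fold of 1.18 (1.07 to 1.29). Its means at vehicle and 6.88 mg/kg were 6.34 and 6.49. The other higher genes were Fnbp1, Eogt, Nxt2, Gucy1b1 (a subunit of soluble guanylate cyclase), Sox13, Rtn4r, Tm2d2, Nt5dc1 and Cnnm2. Another probe set of Fnbp1, Eogt and Rtn4r had the opposite sign.

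Of the lower genes, Bcl3, a nuclear cofactor of NF-kappa-B, read 6.34 to 7.26 at the low doses (median 6.83) and 6.24 to 6.84 at the high doses (median 6.50). Its fold was 0.834 (0.735 to 0.946), with 10 of 11 high-dose arrays below the low-dose mean and other probe sets at -0.07 and -0.13. Pf4, a platelet chemokine, read 5.53 to 6.22 (median 5.78) and 5.04 to 5.98 (median 5.64), with a fold of 0.821 (0.715 to 0.942). Rce1, the protease that trims prenylated proteins such as Ras, had the narrowest spread, 7.34 to 7.53 (median 7.41) against 7.25 to 7.40 (median 7.33). All 11 high-dose arrays lay below its low-dose mean, at a fold of 0.935 (0.892 to 0.980). The remaining lower genes were Ccdc85c, Klhdc8b, Adcy5 (an adenylyl cyclase), Bcl2l12, Htr1b, Celf2, Creb5, Kcnk3 and Dact2, of which Adcy5 and Creb5 had another probe set of opposite sign.

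**Figure D3:**
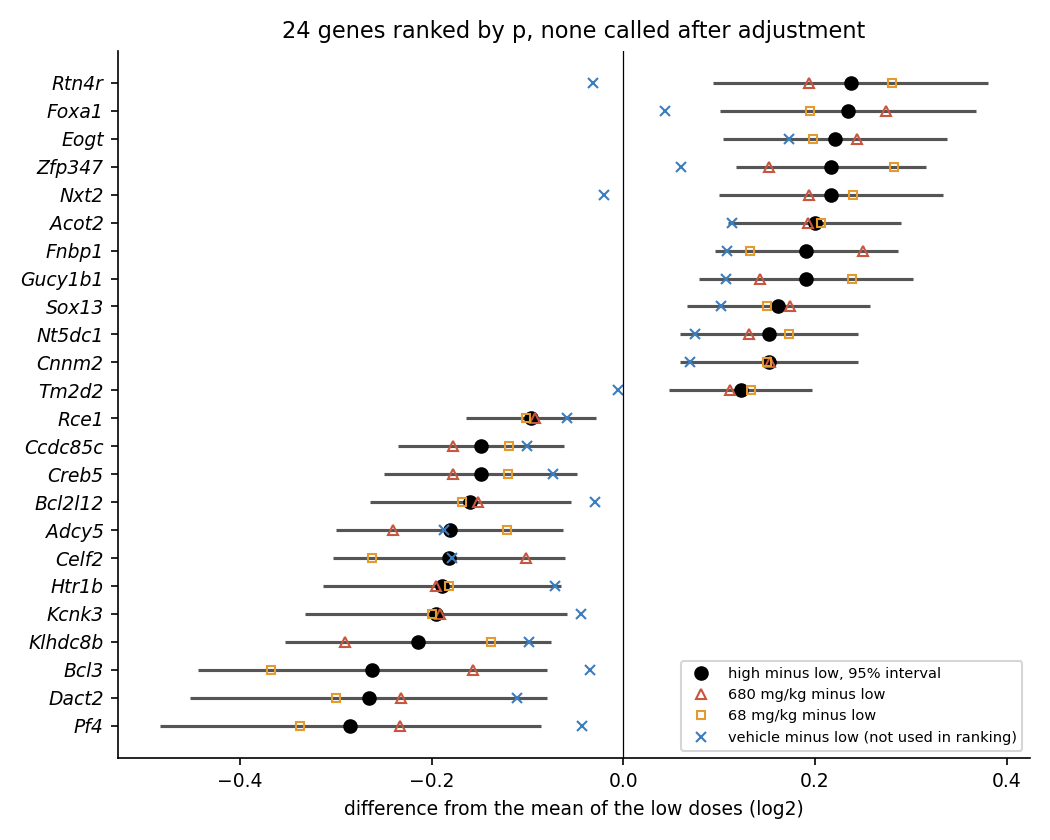
Log2 difference from the low-dose mean for the 24 ranked genes: both high doses together with a 95% interval (black), 680 mg/kg (triangles), 68 mg/kg (squares) and vehicle (crosses). No interval reaches 1.5-fold, and the vehicle crosses lie between the low-dose level (0) and the high-dose value for 19 genes, beyond the low level for 3 and beyond the high value for 2.

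The arrays that did not take part give the ranked genes a level that the ranking did not use. The vehicle mean was nearer to the low-dose than to the high-dose mean for 15 of the 24 (62.5%) and for 55.9% of all genes. The 6.88 mg/kg mean fell between low and high for 19 of the 24 (79.2%) against 25.7% of all genes, but the gap it could fall into was wide for these genes because they were ranked on it.

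The high-dose groups were also taken singly and against each other. At 680 mg/kg against the low doses limma called 0 of 31042 probe sets (percent called 0), with 1520 at an unadjusted p under 0.05. At 68 mg/kg against the low doses it called 0 (percent called 0), with 1415. The contrasts of 680 with 68 mg/kg and of 0.69 with 0.07 mg/kg likewise gave 0 calls each (percent called 0), with 1389 and 1262 at an unadjusted p under 0.05. A slope over log10 dose called 0 (percent called 0), with 1515. The smallest adjusted p of these 5 tests was 0.157, between the low doses. Without moderation each called 0, with between 1256 and 1540 at an unadjusted p under 0.05. More genes differed by over 1.5-fold between neighbouring doses, 19 between 680 and 68 mg/kg and 18 between 0.69 and 0.07 mg/kg, than the 5 between the pooled high and low doses, which average more arrays. Against the low doses there were 10 at 680 mg/kg and 11 at 68 mg/kg. Of these, 1 exceeded 2-fold, Bcl6 at 680 mg/kg (0.365-fold), while each contrast of neighbouring doses had 5 over 2-fold.

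The doses formed pairs of fits that shared no array, so the probe sets ranked in one fit could be looked up in the other. Between 680 and 0.69 mg/kg, 28 probe sets had an unadjusted p under 0.001. Between 68 and 0.07 mg/kg, 15 of these 28 (53.6%) differed in the same direction, as did 50.0% of all probe sets, and 0 of the 28 also reached p under 0.05. Selected the other way round, 3 of 7 kept their direction. With 680 and 0.07 mg/kg as the first fit, 6 of 13 had the same direction between 68 and 0.69 mg/kg, and 14 of 22 when selected in reverse. Across probe sets the differences of the first pair of fits correlated at r = 0.0125, with only the common normalization shared.

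Counts within lists were near those of all genes. At an unadjusted p under 0.05 there were 19 of 518 measured entries of response lists (3.67%) and 5 of 196 entries of cell type lists (2.55%), and 597 of 14217 genes (4.20%; 2.22% higher and 1.98% lower). List medians lay between -0.08 and 0.04 on the log2 scale. Leaving out each array in turn, 17 of 32 medians kept their sign throughout and 15 did not. Replicates 2 and 5 of 68 mg/kg were also left out together after the values had been seen, with no low-dose array beside them. Such a removal shifts the high-dose side by construction. Without these 2 arrays 11 of the 32 medians changed sign. Beside the interferon and Kupffer cell lists these were the CAR and PXR, AhR, bile acid, ER stress, male-predominant, mitochondrial, lymphocyte, neutrophil and exocrine pancreas lists, whose medians without these arrays lay between -0.01 and 0.01.

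Most PPAR-alpha targets and fatty acid oxidation genes were slightly higher at the high doses. Of 38 measured members 33 were higher, with a median of 0.03, and 5 of the 38 had an unadjusted p under 0.05 in that direction (2.22% of all genes were higher at that p). These 5 were the thioesterases Acot2 and Acot3 (fold 1.15 each), Angptl4, an inhibitor of lipoprotein lipase (1.23, interval 1.03 to 1.46), Pdk4, which spares glucose (1.28, 1.00 to 1.62), and the peroxisomal enzyme Ech1 (1.10). None was called. Angptl4 ran from 9.21 to 10.19 (median 9.62) at the low doses and from 9.19 to 10.64 (median 9.95) at the high doses, and Pdk4 from 7.88 to 9.30 (median 8.44) and from 8.09 to 9.50 (median 8.99). Both overlapped over most of their range, with 9 of 11 high-dose arrays above the low-dose mean. In vehicle the means were 9.80 for Angptl4, 8.71 for Pdk4, 5.81 for Acot3 and 9.92 for Ech1. For Angptl4, Acot3 and Ech1 these lie nearer to the high-dose means (9.93, 5.85 and 9.88) than to the low-dose means (9.62, 5.66 and 9.74), and for Pdk4 nearer to the low-dose mean. The most used markers of PPAR-alpha activation, Cyp4a1 and Cyp4a3, were at 0.997-fold (0.883 to 1.12) and 1.01-fold (0.913 to 1.11). Averaged over the 38 members, the deviation from the 23-array mean was -0.02 at 0.07, -0.04 at 0.69, 0.02 at 68 and 0.04 at 680 mg/kg, and 0.06 in vehicle, above every dose. The vehicle mean was nearer to the low doses for 8 of the 38 members.

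The interferon response list lay farthest from 0, with 4 of 33 members higher and a median of -0.08. Isg20 and Tap1, an exonuclease and a peptide transporter that interferon induces, were at 0.913-fold (0.812 to 1.03) and 0.891-fold (0.744 to 1.07), and Isg20 read below the array medians. The list average split the arrays within doses. At 68 mg/kg it deviated by 0.19, -0.57, 0.21, 0.36 and -0.47 in replicates 1 to 5. At 680 mg/kg replicates 3 and 4 were at -0.36 and -0.54 and the other arrays between 0.07 and 0.30. Low values also occurred at the low doses, with -0.57 in 0.07 mg/kg replicate 3 and -0.36 and -0.41 in 0.69 mg/kg replicates 5 and 6. Without 68 mg/kg replicates 2 and 5, 29 of 33 members were higher and the median was 0.06. These were the lowest arrays of 68 mg/kg, and the low arrays of the low doses stayed in. The removal therefore raises the high-dose side by construction.

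Kupffer cell and macrophage markers followed the same 2 arrays. With all arrays 2 of 18 were higher, with a median of -0.05; the median was 0.04 at 680 and -0.13 at 68 mg/kg. The list average was -0.49 and -0.55 in 68 mg/kg replicates 2 and 5, and without these arrays all 18 members were higher, with a median of 0.10. The lowest low-dose array, 0.69 mg/kg replicate 5 at -0.55, stayed in, so this removal also raises the high-dose side by construction. Clec4f, a Kupffer cell lectin, differed by -0.10 over all arrays. In whole liver, fewer cells of a type and less RNA per cell cannot be told apart. The part of these cells in the interferon values was not tested.

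**Figure D4:**
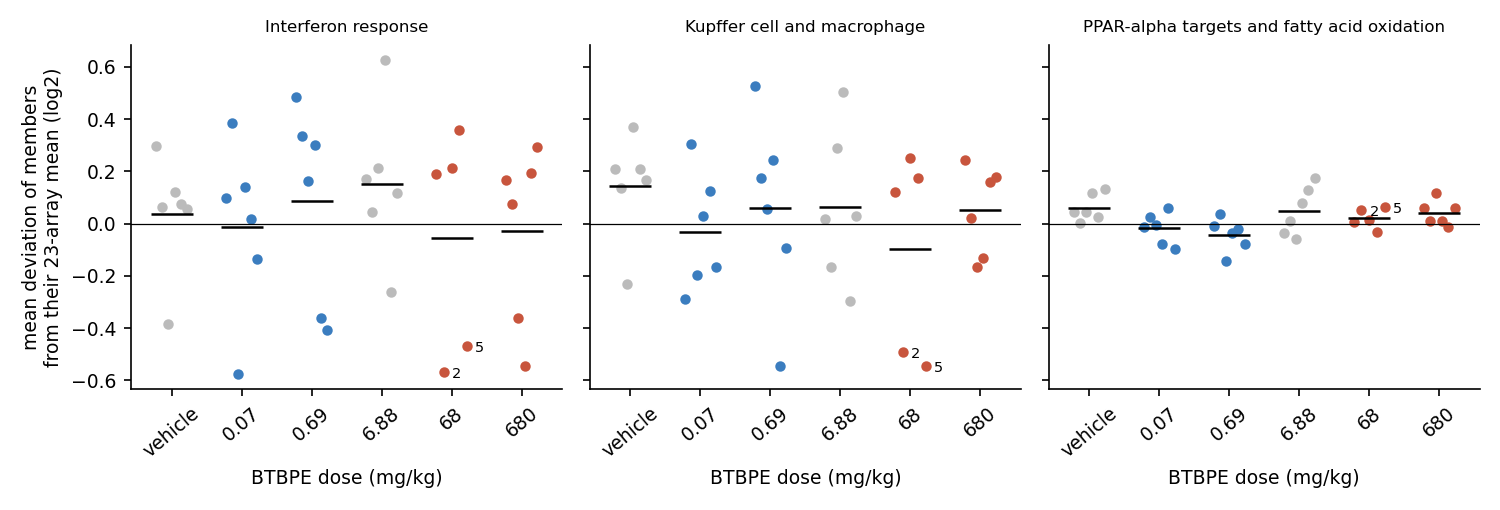
Mean deviation of the members of 3 gene lists from their 23-array mean (log2), 1 point per array by BTBPE dose, with group means as bars; numbers mark replicates 2 and 5 of 68 mg/kg. In the interferon and Kupffer cell lists these 2 arrays lie between -0.47 and -0.57, while in the PPAR-alpha list every dose mean is below the vehicle mean of 0.06.

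Cell cycle genes were mostly lower at the high doses, with 8 of 43 higher and a median of -0.08, and 26 of the 43 read above the array medians. The list average did not follow dose. It deviated by 0.01 at 0.07, 0.07 at 0.69, -0.14 at 6.88, -0.07 at 68 and -0.02 at 680 mg/kg. In vehicle it was 0.02, and its SD within doses was 0.17. Ccnb1, cyclin B1, which drives entry into mitosis, averaged 4.83 ± 0.35 (n = 12) and 4.54 ± 0.29 (n = 11), a fold of 0.818 (0.680 to 0.983; limma's unadjusted p = 0.0337). Over the 23 arrays it averaged 4.69, just below the array medians, where signal is weak. Its vehicle mean was 4.52 and its 6.88 mg/kg mean 4.16. Melk had the smallest p of the list, at 0.895-fold (0.824 to 0.971, limma's unadjusted p = 0.0101). It averaged 3.05, far below the array medians. Ccnb1 and Melk were the 2 of 43 members lower at an unadjusted p under 0.05, and 0 were higher at that p. Dlgap5, a spindle protein, was at 0.897-fold. Top2a, which untangles replicated DNA, read 4.83 ± 0.29 and 4.73 ± 0.24, and Mki67 stayed below the array medians at 3.85 and 3.81. Without 68 mg/kg replicates 2 and 5, 11 of the 43 were higher and the median was -0.04. Replicate 5 had the lowest list average of the high-dose arrays, -0.29, so this removal also raises the high-dose side by construction.

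Targets of p53 were higher for 16 of 19 with a median of 0.03, although Cdkn1a and Mdm2, the most direct of them, were at 1.01-fold each (0.891 to 1.15 and 0.951 to 1.08). Zmat3, an RNA-binding target of p53, was at 1.08-fold (1.02 to 1.15). Stellate cell and fibroblast genes were higher for 21 of 26, with a median of 0.04. Lum and Tagln, a matrix proteoglycan and an actin-binding protein of contractile cells, differed most in that list, by 0.46 and 0.35 (log2). At limma's unadjusted p under 0.05, 0 of the 26 were higher, where 2.22% of all genes were. A list of 26 is too short to tell these shares apart. The 1 member under that p, Rgs5, was lower, at 0.903-fold (0.825 to 0.988). Dpt, a matrix gene outside this list, was at 1.53-fold (1.13 to 2.09, limma's unadjusted p = 0.0083). Markers of sinusoidal endothelium were higher for 13 of 20, of lymphocytes for 7 of 24 (13 without 68 mg/kg replicates 2 and 5) and of cholangiocytes for 5 of 13. Of these 13, 2 were lower at limma's unadjusted p under 0.05 (1.98% of all genes) and 0 higher. The 2 were Cftr (0.903-fold, 0.848 to 0.963) and Cd24 (0.866-fold, 0.755 to 0.992). Both read below the array medians, and neither was called. Hepatocyte markers were higher for 4 of 11, with a median of -0.01, pericentral genes for 11 of 16 and periportal genes for 4 of 17. Kidney and adrenal genes had a median of -0.06, with 1 of the 15 above the array medians, and Slc12a3, a kidney salt transporter, read 4.21 ± 0.13 and 4.10 ± 0.11. Markers of exocrine pancreas were higher for 9 of 18 with a median of 0.00, and 3 of them read above the array medians.

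The remaining response lists had medians between -0.03 and 0.03. Cholesterol synthesis and uptake genes were higher for 5 of 20, with a median of -0.03, and fatty acid synthesis genes for 10 of 25. Acute phase genes, which the liver secretes in inflammation, were higher for 9 of 30, with A2m at 0.991-fold (0.786 to 1.25). Genes of ER stress were higher for 21 of 34 (17 without 68 mg/kg replicates 2 and 5), heat shock genes for 12 of 17, bile acid genes for 11 of 22, with the repressor Nr0b2 at -0.36 (log2), and mitochondrial respiratory chain subunits for 27 of 37 (17 without the same arrays), the last with a median of 0.01. Thyroid hormone responsive genes were higher for 13 of 18, fasting genes for 12 of 25, clock genes for 12 of 20 and male-predominant genes for 13 of 22. Within the male-predominant list differences ran from -0.62 (Bcl6) to 0.60 (Cish, log2). In the clock list Per1, a repressor of the clock, was at 0.904-fold (0.835 to 0.979; limma's unadjusted p = 0.0154), and Bmal1, its activator, at 1.00-fold (0.942 to 1.06).

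**Figure D5:**
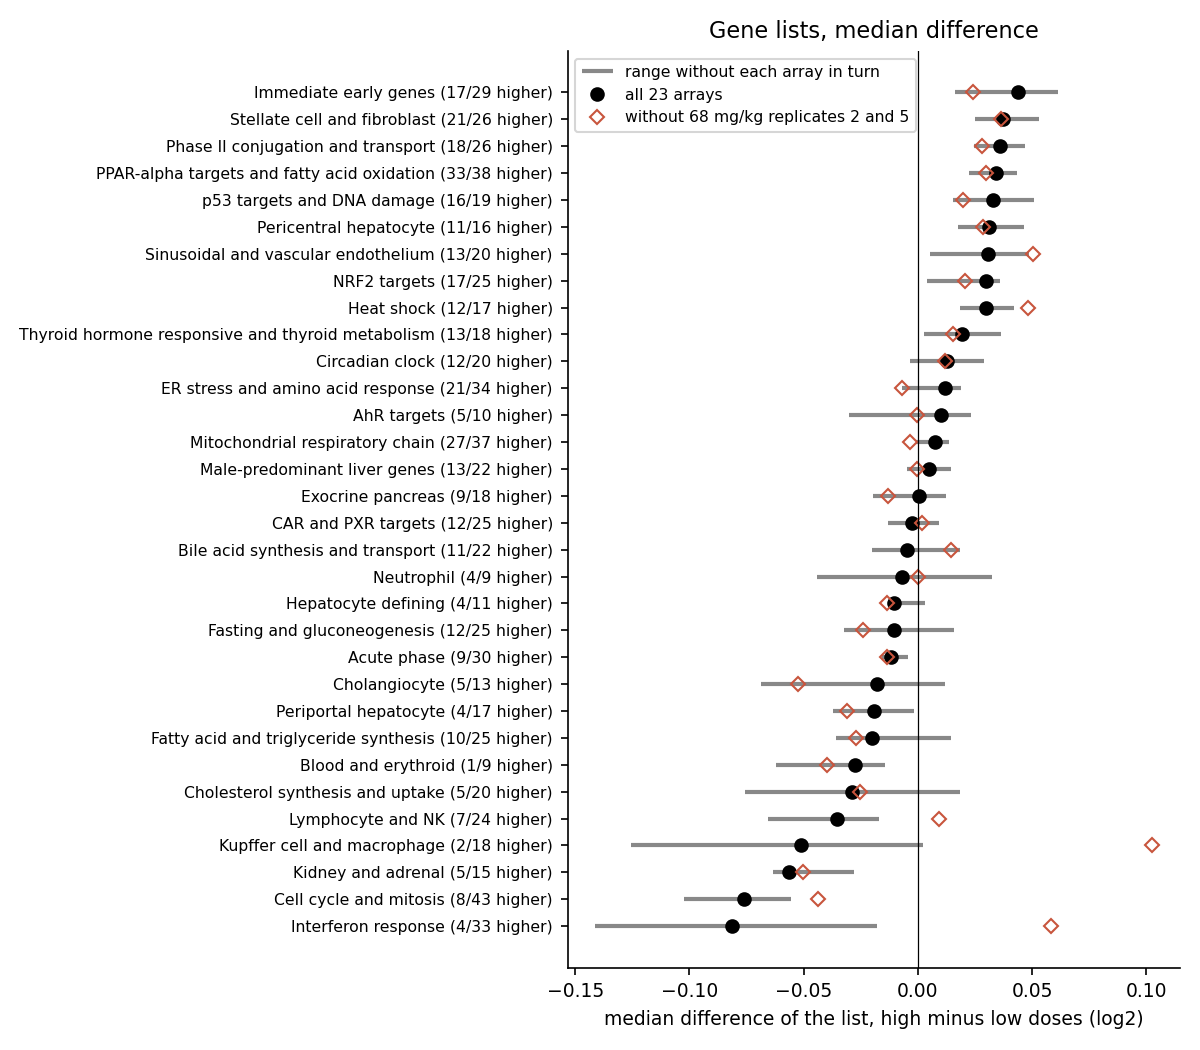
Median log2 difference between high and low doses for 32 gene lists, with all 23 arrays (black), the range when each array is left out in turn (grey bars) and the value without 68 mg/kg replicates 2 and 5 (open diamonds); counts beside the names give members higher of members measured. The interferon (-0.08 to 0.06) and Kupffer cell (-0.05 to 0.10) medians move farthest across 0 without these 2 arrays, and 11 of the 32 change sign. Both arrays belong to the high doses, and no low-dose array was left out with them.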

How the data were processed

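Single-colour Affymetrix arrays of rat liver were used. Per the submitters' processing notes, RMA and affy were applied, in unstated versions. Values deposited by the authors were taken to be log2 expression per probe set, the base following from RMA's convention. RMA equalises array distributions, which would reduce a shift of most transcripts. Of 31099 probe sets, 57 controls were left out and the rest tested without a filter.

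Genes were named from the platform annotation: 20826 probe sets had 1 symbol, 436 several and 9780 none, and the probe set with the highest mean stood for its gene. Cyp2b1 and Cyp2b2 had none of 1 symbol and were not analysed here.

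limma 3.58.1 in R 4.3.3 fitted 1 mean per dose to the 23 arrays. High minus low is the difference between averages of dose means, so it can depart slightly from that of pooled means. Benjamini-Hochberg adjustment covered all probe sets, with 95% intervals. The design names R/maanova at 5%, not used here. The fit was tested on simulated data.

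Named genes were those called, otherwise the 12 with the smallest p per direction at or above the lowest array median (4.71), the first 2 members of each response list, and 4 members of the 3 lists farthest from the median of all genes. Not every gene so chosen is described above. Genes over 1.5-fold, and other list members named, were singled out after their values were seen. The dose groups and the 32 lists (714 of 839 entries measured) were chosen with earlier results of these data known.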

Additional observations from a re-analysis of the deposited data

Results flagged for a closer look

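In 404 sets of 4 to 10 arrays (a named gene, list or control in 1 dose group), 27 had an array standing apart from its group by Dixon's criterion (6.68%), where chance gives about 1 in 20. All values are log2.

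The array of 0.07 mg/kg replicate 5 stood apart for 8 genes. It was highest for Htr1b (5.75, others up to 5.37), Kcnk3 (6.86, others up to 6.57), Cyp1a1 (4.63, others up to 4.36), Atf3 (5.45, others up to 4.89), E2f1 (5.12, others up to 4.81) and Angptl4 (10.19, others up to 9.72). It was lowest for Cyp7a1 (9.39, others from 10.93) and Bcl6 (5.81, others from 9.21).

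At 0.69 mg/kg, replicate 5 was lowest for Ugt2b (4.57, others from 12.48) and Cyp1a2 (12.34, others from 12.48) and highest for Creb5 (5.53, others up to 5.30). Replicate 2 was lowest for Resp18 (3.64, others from 5.46), replicate 3 for Nt5dc1 (7.15, others from 7.36) and replicate 6 for Cftr (2.92, others from 3.08), and replicate 4 was highest for Ccnb1 (5.44, others up to 4.88).

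At 68 mg/kg, replicate 2 was highest for Klhdc8b (5.04, others up to 4.87) and lowest for Cyp8b1 (9.87, others from 10.57). Replicate 3 was highest for Top2a (5.06, others up to 4.69) and Dlgap5 (5.00, others up to 4.71). Replicate 4 was lowest for Angptl4 (9.19, others from 9.95) and replicate 5 for Eogt (5.16, others from 5.43).

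At 680 mg/kg, replicate 2 was lowest for Pck1 (10.73, others from 12.02), replicate 5 for Hspa1a (4.32, others from 4.99) and replicate 6 for Rgs5 (4.59, others from 4.84), and replicate 3 was highest for Kap (3.97, others up to 3.54). At 0.07 mg/kg, replicate 3 was lowest for Cftr (2.93, others from 3.16) and replicate 6 highest for Cd24 (4.61, others up to 3.82).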

How the results depend on the processing

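Under every alternative run, high against low doses gave 0 calls, with a smallest adjusted p of 0.581 on probe sets above the array medians. The 612 higher and 841 lower probe sets at an unadjusted p under 0.05 became 383 and 236 on those probe sets and 340 and 292 with 1 probe set per gene, where fewer features were tested, and ranged over 554 to 761 higher and 738 to 988 lower without each array in turn. Centring arrays on their medians gave 782 and 664, and quantile normalization again 693 and 719. Of the other comparisons, 0.69 against 0.07 mg/kg gave 1 call with array weights, Mtrf1l (adjusted p = 0.0305), against 0 without; the cause was not tested. Replicate numbers showed no sign of pairing the animals, although such correlations cannot exclude it. Between doses, 3 of 33 same-numbered pairs of arrays correlated above 0.1, against 25 of 165 pairs of other numbers. The replicate block gave 0 calls, with 630 higher and 877 lower. The 24 ranked genes kept their direction in every alternative, as did 19 of the 40 response genes. The 24 were ranked by p on these same arrays, so their kept direction follows from the ranking and lends them no support. On probe sets above the array medians, 15 were selected for the look-up between fits that share no array, and 12 of them (80%) had the same direction, as did 49.2% of all such probe sets. In the second fit 0 of the 15 reached an unadjusted p under 0.05 in that direction. The 2 sets of differences correlated at r = 0.00183 over all probe sets above the array medians. On these probe sets 3 list medians moved by more than the spread within groups: AhR targets to 0.12 (4 genes), exocrine pancreas to -0.06 (3) and kidney and adrenal to 0.03 (1). The number of arrays limits the precision.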
